A study of Bos taurus with 6 samples.

Results

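A set of 10 genes tied to steroid synthesis in the adrenal cortex was followed across a self-self hybridisation of a bovine cDNA microarray. They are CYP11A1, CYP11B1, CYP17A1, HSD3B1, FDX1, CYB5A, HSD11B2, MC2R, INHA and MGARP, taken as a list and found by their single gene symbol in the platform annotation. All 10 were on the array, with 11 of its 19200 features, among 8397 genes with a name. CYB5A had 2 features and the other 9 genes had 1 each. A self-self hybridisation puts the same kind of RNA in both channels of an array, so a log ratio of 0 is the value without any difference. The study labelled total RNA of bovine adrenal tissue against bovine adrenal tissue, and of bovine lymph tissue against bovine lymph tissue. GEO lists 3 arrays for each, but adrenal 2 and lymph 3 held identical values in every row. That column was counted once, as the shared array of unknown tissue, so that the 5 distinct arrays are adrenal 1 and 3, lymph 1 and 2, and this one. The sources used here do not give breed, age, sex, the animals behind each array or the kind of lymph tissue. If arrays came from 1 RNA, the p-values measure only technical spread.

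The adrenal cortex turns cholesterol into glucocorticoids, mineralocorticoids and androgens through a chain of cytochrome P450 enzymes and hydroxysteroid dehydrogenases, partly in mitochondria and partly in the endoplasmic reticulum. The pituitary hormone ACTH drives the chain through the receptor MC2R. Lymph tissue is not a classical site of this chain. The values here are ratios within 1 tissue and hold no level of a gene, so they cannot show whether a member was expressed in either tissue, and the tissue labels could not be checked against defining markers. All values are log ratios after each array was centred on its median, in deposited log units whose base the sources used here do not give. The dye of the numerator and its orientation on each array are also unknown, so a sign says only which side of 0 a value took. Means, tests, differences and counts of sides over arrays take the same orientation on each array, which could not be checked.

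Of the 10 genes, all but HSD3B1 could be tested, and 0 of these 9 were called in any comparison at an adjusted p under 0.05 (limma). The share called among all genes was also 0.0%, so this count says nothing particular about the members. The farthest value of any member was that of HSD3B1 on lymph 1, at 0.36, which is 1.28-fold if the deposited values are log2 ratios and 2.29-fold if they are log10 ratios. The members' values ran from -0.28 to 0.12 on adrenal 1, from -0.17 to 0.19 on adrenal 3, from -0.25 to 0.36 on lymph 1, from -0.24 to 0.27 on lymph 2 and from -0.041 to 0.14 on the shared array. The median distance from 0 of the members was below that of all genes on 4 of the 5 arrays and above it on lymph 1. On lymph 1 it was 0.131 against 0.0927 for all genes, and on adrenal 1 it was 0.0545 against 0.0723. On the shared array both medians were smallest, at 0.0306 against 0.0396. The members fell on both sides of 0 on each array, with 6 of 10 above on adrenal 1, 4 of 9 on adrenal 3, 4 of 10 on lymph 1, 7 of 10 on lymph 2 and 6 of 10 on the shared array. Among all genes, 51.0% to 52.0% of values lay above 0 on an array.

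**Figure D1:**
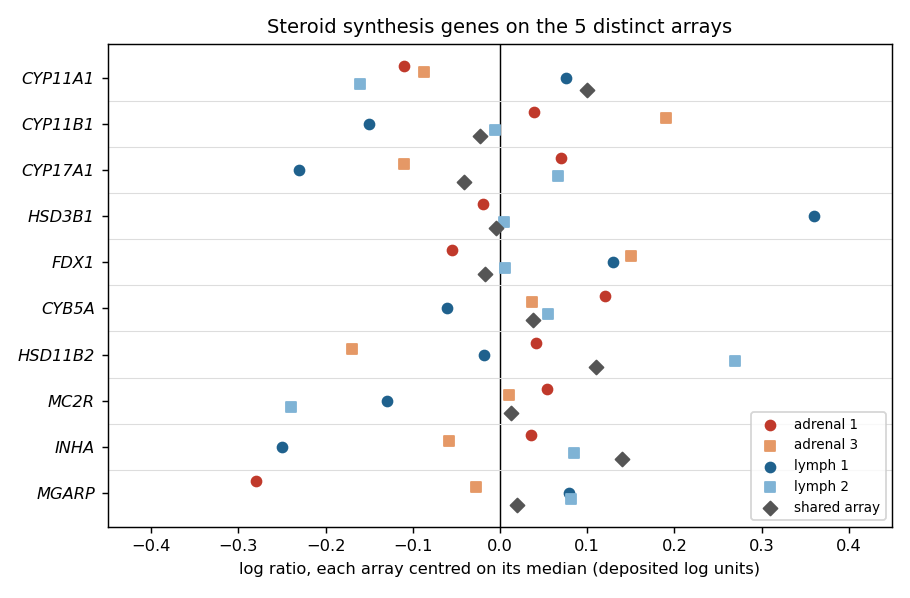
Log ratio of each of the 10 genes on the 5 distinct arrays (x axis, deposited log units after centring on the array median), with a row per gene and 1 symbol per array. Points scatter on both sides of 0 and none reaches 0.4; HSD3B1 on lymph 1 lies farthest, at 0.36.

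MC2R, the ACTH receptor, comes first in the chain. The adrenal arrays gave log ratios of 0.054 (array 1) and 0.0099 (array 3), the lymph arrays -0.13 (array 1) and -0.24 (array 2), and the shared array 0.013. Both lymph arrays lay below both adrenal arrays, with no overlap. The lymph mean was -0.19 ± 0.0816 (SD, n = 2), and the 95% interval of limma's moderated estimate ran from -0.35 to -0.018. This was the 1 member with an unadjusted limma p under 0.05 in the 4 comparisons (0.0345), a mark that 8.02% of 8318 tested genes reached in lymph. Of these 667 genes, 209 lay below 0, as MC2R did. After Benjamini-Hochberg adjustment over all genes the limma p of MC2R was 0.617, and it ranged from 0.414 to 0.827 over the alternatives. Lymph minus adrenal was -0.22 ± 0.101 (SE), with an interval from -0.46 to 0.020 (limma adjusted p = 0.941). It shrank to -0.15 with the shared array placed in lymph.

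Cholesterol side-chain cleavage, the first enzymatic step, needs CYP11A1 and the iron-sulphur protein FDX1, which passes electrons to mitochondrial P450 enzymes. In the same order of arrays, CYP11A1 had log ratios of -0.11 and -0.087 in adrenal, 0.076 and -0.16 in lymph, and 0.10 on the shared array. Its adrenal arrays agreed closely and its lymph arrays enclosed them. The adrenal mean was -0.10 ± 0.0184 (SD, n = 2), and limma's interval from -0.29 to 0.089 held 0. With the shared array in adrenal the mean became -0.035. FDX1 stood at -0.055 and 0.15 in adrenal, 0.13 and 0.0062 in lymph, and -0.017 on the shared array. Its range in lymph lay inside its range in adrenal. The average over 5 arrays was 0.044 ± 0.0926 (SD).

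HSD3B1 converts pregnenolone and its relatives into hormones of the progesterone type. Adrenal 1 gave -0.020 and adrenal 3 an empty cell. The lymph arrays gave 0.36 (array 1) and 0.0046 (array 2), and the shared array gave -0.0042. The value on lymph 1 stood apart from the other 3, which ran from -0.020 to 0.0046. Its distance from 0 exceeded that of 93.7% of genes with 1 feature on that array. With 1 value in adrenal HSD3B1 missed the filter of 2 values per tissue and was not tested. With no filter on empty cells its average was 0.085 ± 0.070 (SE, n = 4; limma adjusted p = 0.732).

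CYP17A1 directs steroids towards cortisol and androgens, and CYB5A, cytochrome b5, aids its lyase activity. CYP17A1 read 0.070 and -0.11 on the adrenal arrays, -0.23 and 0.066 on the lymph arrays, and -0.041 on the shared array. Each tissue had 1 array on either side of 0. The gap between its lymph arrays was 0.295, against 0.0612 between the tissue means. CYB5A, averaged over its features, read 0.12 and 0.037 in adrenal, -0.061 and 0.055 in lymph, and 0.038 on the shared array. It was above 0 on 4 of 5 arrays and had the smallest mean distance from 0 among the 9 members with 5 values, at 0.0628. CYB5A is also the only member averaged over 2 features. The median SD over arrays was 0.0877 for genes with 2 features and 0.122 for genes with 1.

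The features of CYB5A give a second measure of error, since both are annotated to the same gene and read on the same array. Feature 4900 stood at 0.013, 0.053, -0.12, -0.075 and 0.044 on adrenal 1, adrenal 3, lymph 1, lymph 2 and the shared array. Feature 17336 stood at 0.23, 0.021, 0.00085, 0.19 and 0.032 on the same arrays. They parted most on lymph 2, by 0.261, and on adrenal 1, by 0.22, and least on the shared array, by 0.0124. Over genes with 2 features the median difference was 0.141 on lymph 2, 0.121 on adrenal 1 and 0.0667 on the shared array. CYB5A exceeded 77.9%, 76.4% and 10.1% of them. On lymph the features gave opposite signs, with tissue values of -0.10 and 0.093.

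CYP11B1, the mitochondrial enzyme that completes cortisol, read 0.039 and 0.19 in adrenal, -0.15 and -0.0061 in lymph, and -0.023 on the shared array. Its tissues did not overlap, though lymph 2 was close to 0. Lymph minus adrenal was -0.19 ± 0.111 (SE; limma adjusted p = 0.950), with an interval from -0.46 to 0.065. It was -0.12 without adrenal 3 or without lymph 1, and -0.27 without either of the other two. HSD11B2, which inactivates cortisol to cortisone, stood at 0.041 and -0.17 in adrenal, -0.018 and 0.27 in lymph, and 0.11 on the shared array. It had the largest mean distance from 0 of the 9 members with 5 values, at 0.119, and its lymph 2 value was farther from 0 than 92.8% of genes with 1 feature. Its arrays overlapped between the tissues.

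The last 2 members are no enzymes of the chain. INHA, the alpha subunit of inhibin, stood at 0.035 and -0.059 in adrenal, -0.25 and 0.085 in lymph, and 0.14 on the shared array. Its lymph arrays differed by 0.339, the widest gap within a tissue of the 9 members. MGARP, a mitochondrial protein of steroid-producing tissues, stood at -0.28 and -0.028 in adrenal, 0.079 and 0.081 in lymph, and 0.020 on the shared array. The lymph arrays were nearly equal, 0.00209 apart, while the adrenal arrays differed by 0.255. On adrenal 1 its distance from 0 exceeded that of 94.0% of genes with 1 feature. Lymph minus adrenal was 0.24 ± 0.117 (SE), with an interval from -0.039 to 0.51 (limma adjusted p = 0.941). This difference was 0.11 without adrenal 1 and 0.36 without adrenal 3.

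The tests across all genes set these values in context. With limma, 0 of 8318 genes (0.0%) passed at an adjusted p under 0.05 in adrenal against 0, in lymph against 0, in lymph minus adrenal and in the average. An unadjusted p under 0.05 was reached by 612 genes in adrenal (7.36%), 667 in lymph, 401 in the difference (4.82%) and 818 in the average (9.83%). The adrenal count was 323 without adrenal 3, and that of the difference was 224 without adrenal 3 and 664 without lymph 2. Of the 9 members tested, the counts were 0, 1, 0 and 0. The members' adjusted p lay between 0.724 and 0.990 in adrenal, 0.617 and 0.996 in lymph, 0.941 and 0.994 in the difference, and 0.743 and 0.967 in the average. All 9 intervals held 0 in adrenal, the difference and the average, and 8 of 9 did in lymph.

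The intervals also show which sizes of departure remain compatible with these arrays. In adrenal the 9 intervals together ran from -0.35 to 0.30, in lymph from -0.35 to 0.34, and in the average from -0.17 to 0.18. Read as log2 ratios, the outermost bounds are 1.27-fold in adrenal, 1.28-fold in lymph and 1.13-fold in the average, and read as log10 ratios they are 2.24-fold, 2.26-fold and 1.51-fold. For lymph minus adrenal they ran from -0.46 to 0.51, or 1.42-fold as log2 and 3.23-fold as log10. Each interval is for 1 gene at 95% and rests on limma's moderated spread, which draws a gene's own spread towards that of all genes. HSD3B1 is not in these bounds. With no filter on empty cells its interval ran from -0.064 to 0.43 in lymph and from -0.077 to 0.25 in the average, beyond the upper bounds of the 9.

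**Figure D2:**
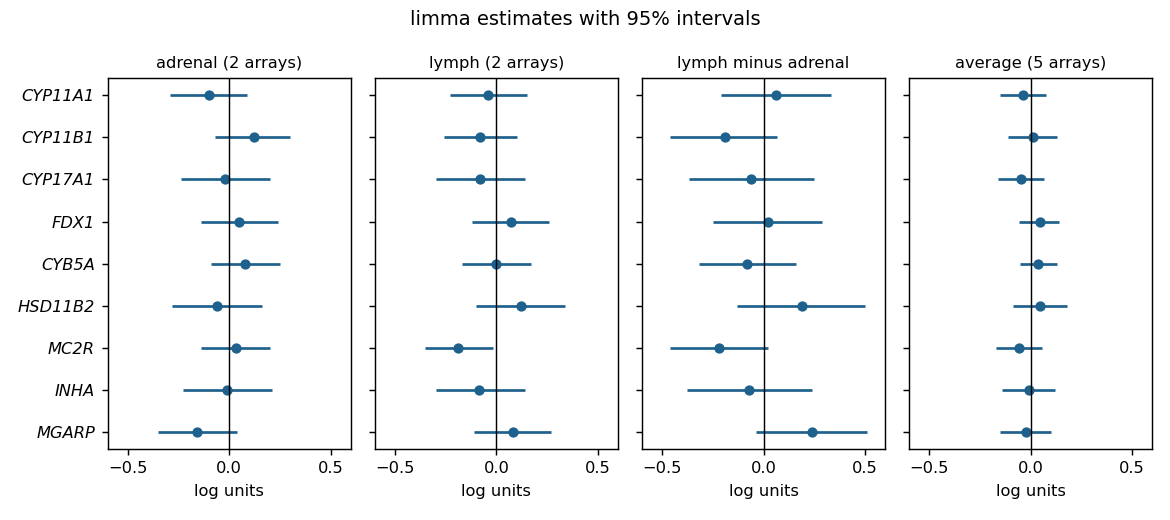
limma estimates (points) with 95% intervals (lines) for the 9 tested genes in adrenal, lymph, lymph minus adrenal and the average of 5 arrays (x axes in deposited log units). Every interval crosses 0 except that of MC2R in lymph, from -0.35 to -0.018, whose adjusted p was 0.617.

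CYP11B1, MC2R and MGARP were the members whose adrenal and lymph arrays did not overlap, 3 of 9 or 33.3%. Over all 8318 genes the share was also 33.3%, so the members' count is that of the background. Both lymph arrays lay below both adrenal arrays in 2 members (17.0% of all genes) and above them in 1 (16.3%). In these same 3 genes the tissues lay on opposite sides of 0, which 11.0% of all genes did. CYP11B1 and MC2R were above 0 in adrenal and below in lymph (5.22% of all genes), and MGARP was the reverse (5.77%). The 3 genes kept opposite sides in the deposited values without centring, where the share of all genes was 10.7%. The gap between tissue means exceeded both gaps within a tissue in 2 members, CYP11B1 and MC2R, or 22.2%, against 20.8% of all genes.

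The gaps between 2 arrays of a tissue were no smaller in the median than the gaps between tissue means, each of which averages 2 arrays. Among the 8 tested members with 1 feature, the median gap was 0.166 between the adrenal arrays, 0.191 between the lymph arrays and 0.129 between the tissue means. For all 5151 genes with 1 feature these medians were 0.121, 0.142 and 0.0992. The SD over the 5 arrays ran from 0.0657 for CYB5A to 0.158 for HSD11B2. Set against genes with as many features, these SDs of the 9 members with 5 values fell between the percentiles 27.4 and 70.9. The mean distance from 0 was larger in lymph than in adrenal in 5 of 9 members, or 55.6%, against 53.4% of all genes. Of the 9, 0 kept to 1 side of 0 across the 5 arrays, as 11.0% of 8315 genes did.

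**Figure D3:**
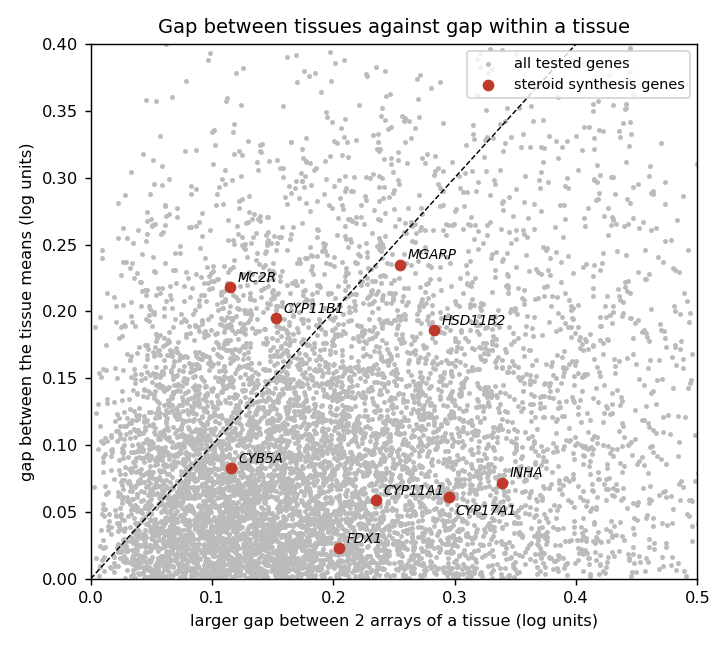
Gap between the adrenal and lymph means (y axis) against the larger of the gaps between the 2 arrays of a tissue (x axis), in log units, for the 9 tested members (red, labelled) and all 8318 tested genes (grey, 450 outside the axes). MC2R and CYP11B1 lie above the dashed line of equal gaps, and the other 7 members lie below it.

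HSD11B2 had the largest mean distance from 0 among the members with 5 values, and the genes with the most similar values were sought for it by Euclidean distance over the 5 arrays. PDCD1, the T cell checkpoint receptor PD-1, was nearest at a distance of 0.0529, with 0.048 and -0.21 in adrenal, -0.015 and 0.26 in lymph, and 0.092 on the shared array. STK40 followed at 0.095 and IER5 at 0.10, among 8314 genes compared. Such a search returns a nearest gene for any member, and closeness beyond chance was not tested. The nearest member was CYB5A at 0.313, and 17.2% of all genes lay nearer.

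Of 65 further genes listed for the pathway, 42 were on the array with a name, and 0 of them passed in any of the 4 comparisons with limma. An unadjusted p under 0.05 was reached by 2 above 0 and 0 below in adrenal, by 3 and 2 in lymph, by 1 and 2 in the difference, and by 3 and 2 in the average. These counts are 4.76%, 11.9%, 7.14% and 11.9% of the 42, against 7.36%, 8.02%, 4.82% and 9.83% of all tested genes. Among all tested genes the sides were uneven too. In adrenal 457 lay above 0 and 155 below, in lymph 458 and 209, in the difference 205 and 196, and in the average 594 and 224. In the average their median was 0.0015 and 21 of 42 lay above 0, against a median of 0.0049 over all genes. By role, the medians were 0.010 for 10 genes of cholesterol supply, 0.0066 for 13 enzymes and redox partners, -0.0099 for 8 receptors and signalling genes, -0.0052 for 7 regulators and -0.029 for 4 genes of the inhibin and activin family. Tissues did not overlap in 16 of the 42, or 38.1%, against 33.3% of all genes.

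CITED2, a transcriptional co-regulator that takes part in adrenal development, had the highest average, at 0.21 ± 0.0948 (SD, n = 5). It stood at 0.28 and 0.25 in adrenal, 0.26 and 0.23 in lymph and 0.048 on the shared array. Both tissues thus gave nearly the same value and the shared array a lower one. The median distance from 0 of all genes was also lower there, at 0.0396, against 0.0723 to 0.0927 on the other arrays. Its limma adjusted p was 0.299 in the average, 0.569 in adrenal and 0.601 in lymph. These equal the smallest values over all genes in those comparisons, but such values can be tied. NPC1 and PDE8B had the same limma adjusted p of 0.601 in lymph. NPC1, which moves cholesterol out of lysosomes, averaged 0.13 ± 0.143, with 0.37 on lymph 1, and DBI, an acyl-CoA-binding protein that also binds TSPO, averaged 0.12 ± 0.124 (SD, n = 5 each).

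The lowest averages were those of POR, PDE8B and LIPE. POR, the reductase that supplies electrons to CYP17A1 and other P450 enzymes of the endoplasmic reticulum, stood at -0.22 and -0.093 in adrenal, -0.064 and -0.20 in lymph and -0.032 on the shared array. It lay below 0 on each of the 5 arrays, with an average of -0.12 ± 0.0852 (SD; limma adjusted p = 0.419). PDE8B, a phosphodiesterase that degrades cyclic AMP, averaged -0.12 ± 0.108, and LIPE, the hormone-sensitive lipase, -0.10 ± 0.168 with -0.36 on adrenal 1. NR5A1, the nuclear receptor SF-1 that activates genes of the chain, stood at 0.024 and -0.14 in adrenal, 0.34 and -0.18 in lymph, and -0.0087 on the shared array.

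**Figure D4:**
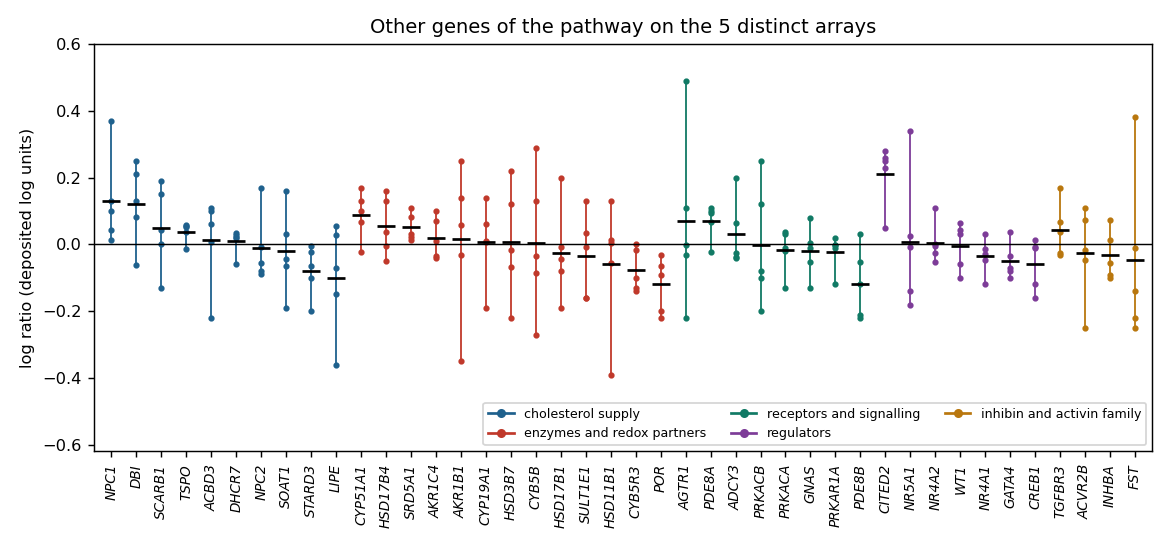
Log ratios (y axis, deposited log units) of the 42 further pathway genes on the 5 distinct arrays, coloured by role and ordered by average within a role. Dots are arrays, vertical lines join the lowest and highest array, and black bars are averages; CITED2 has the highest average at 0.21.

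Marker genes of other cells that an adrenal or lymph sample can hold were read in the same way. The array medians of 10 chromaffin genes, which mark the adrenal medulla, ran from -0.11 to 0.11, and those of 11 lymphocyte genes from -0.0051 to 0.12. Those of 4 endothelial genes ran from -0.037 to 0.071 and those of 5 fibroblast genes from -0.023 to 0.085. Some single markers lay farther from 0 than any member. PNMT stood at 1.5 on adrenal 1 and had no value on adrenal 3. CHGA stood at -0.83 on adrenal 3 but at -0.013 on adrenal 1. CD8A stood at 0.58 on adrenal 3 and above 0 on the other arrays too, with 0.29 on adrenal 1, 0.28 and 0.34 in lymph, and 0.037 on the shared array. CHGB, at 0.39 and -0.38 on the adrenal arrays, was only slightly farther from 0 than HSD3B1 at 0.36. These 4 markers were picked for their values. A summed level of these markers and genes at 0 cannot be given from ratios. Their part in the members' values was not tested.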

How the data were processed

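The deposited table held 1 signed value per feature and array, recorded here as a score. It was taken as a log ratio of the 2 channels, since the values are signed with medians near 0. How the arrays were scanned, corrected and normalised, and the logarithm base, are not given in the sources used. Deposited medians ran from -0.0112 to 0.0017, and 2 to 177 features per array were empty. Each array was centred on its median, and features with the same single symbol were averaged. Of 19200 features, 12630 had 1 symbol, 224 had several and 6346 had none. Of the members' gene numbers, all but that of CYP17A1 were in the RefSeq table of the ARS-UCD2.0 assembly, and all 10 symbols were.

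limma 3.58.1 in R 4.3.3 (lmFit, eBayes; two-sided, Benjamini-Hochberg over all genes, threshold 0.05) was fitted with 1 coefficient per tissue on 4 arrays, and with 1 coefficient on 5 arrays for the average. Genes needed 2 values per tissue. The fit was tested on simulated data. Python 3.11.15 and pandas 2.3.3 did the rest. Members and lists were chosen with earlier results of these data known. The text names all members, the 3 highest and 3 lowest averages among further pathway genes, and the 3 genes nearest the member farthest from 0 on average. NR5A1 was named outside this rule, after its values were seen. Other scaling, filters, averaging, spread estimates and uses of the shared column, single features, a replicate block, and each array left out were tried. The number of arrays limits the precision.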

Additional observations from a re-analysis of the deposited data

Results flagged for a closer look

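The log ratio of HSD3B1 on lymph 1, 0.36, stood far from its other 3 values. The gap to the nearest of them was a share of 0.935 of the gene's whole range, above Dixon's critical value of 0.829 for 4 values. This check was made on 10 genes over their distinct arrays, and chance alone marks about 5% of such sets.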

How the results depend on the processing

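In the average 0 members were called under 16 alternatives, and in the other 3 comparisons under 15, since leaving out the shared array bears only on the average. Over all genes, 0 were called in most settings. Keeping genes with empty cells added 1 call, PNMT in adrenal, which rests on its 1 adrenal value. When single arrays were dropped, the count of genes ranged from 0 to 5 in adrenal, from 0 to 2 in lymph, from 0 to 5 in lymph minus adrenal, and was 0 in the average. A tissue reduced to 1 array was assumed to vary like the other tissue. Dropping adrenal 1 gave 5 genes in adrenal and the same 5 in lymph minus adrenal (RPL27A, GOT2, NUF2, SEC31A and SERPINF1), dropping adrenal 3 gave PNMT in each, and dropping lymph 2 gave CBFB and CDK11B in lymph and CBFB in lymph minus adrenal. These genes are named although the rule does not take them in, with values in view. The cause was not tested.

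Members' values, none of them called, changed sign in 7 of 136 alternative values in adrenal, 12 of 136 in lymph, 9 of 136 in the difference and 9 of 145 in the average. Many of these alternatives cannot move a member's value, among them the robust spread estimate and the filters on empty cells. For the value of a tissue, leaving out an array of the other tissue cannot either. The shares thus do not measure how stable a sign is. Several kept their sign throughout, among them MC2R in lymph, from -0.24 to -0.12, and MGARP in the difference, from 0.11 to 0.36. CYP11B1 did so in adrenal, in lymph and in the difference. The alternatives reuse the same arrays. Leaving out an array of a tissue returns the value of its other array. A member with both arrays on the same side, or with tissues that do not overlap, therefore keeps its sign when an array is dropped. Of 49 member values 2 changed side without centring, those of HSD3B1 and FDX1 on lymph 2.

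The identical columns, adrenal 2 and lymph 3, leave the pairing by replicate number undecided. Deviations of same-numbered columns from their tissue means correlated at 0.0769 (number 1), -0.178 (number 2) and -0.144 (number 3). The identical column enters both tissue means, which by itself moves these correlations away from 0. They therefore cannot decide the pairing. A fit of all 6 columns with the replicate block called 0 genes and 0 members, as it did without the block, and 236 genes against 156 had an unadjusted p under 0.05 in the difference. Signal over background was not used here.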
